A study of Homo sapiens with 6 samples.

Results

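NUPR1, GDF15 and 8 other genes of the integrated stress response were examined in xenograft tumors of human breast cancer cells with and without a dose of X-rays. The 10 genes (NUPR1, GDF15, ATF4, ATF3, DDIT3, TRIB3, CHAC1, ASNS, PSAT1 and PHGDH) were taken by symbol from the 60606 genes of the expression table, and all 10 reached a mean of 1 TPM over the 6 tumors, the minimum for testing, which 14140 genes passed. NUPR1 reached it only through the irradiated group. TPM is a transcript's share of a sample's RNA after scaling for gene length. MDA-MB-231 is an established line of triple-negative breast cancer, grown here as subcutaneous tumors from wild-type cells mixed with Matrigel, in immunodeficient NSG mice (NOD/SCID/IL2Rγ-null). NSG mice lack T cells, B cells and natural killer cells, and keep their own stroma and myeloid cells. The 3 control tumors were not irradiated. The 3 irradiated tumors received a single local dose of 10 Gy at about 800 mm3 and were collected 3 days later. The labels give no volume or time for the controls and do not say that the tumors of a group came from separate mice, so the spread between tumors may be partly technical.

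As background, the integrated stress response begins when a kinase phosphorylates the translation factor eIF2. The kinases PERK (EIF2AK3), PKR (EIF2AK2), GCN2 (EIF2AK4) and HRI (EIF2AK1) answer to endoplasmic reticulum stress, double-stranded RNA, amino acid shortage and heme shortage or mitochondrial stress. Most translation falls, while translation of the mRNA of ATF4 rises, so the amount of ATF4 protein can change with little change in ATF4 mRNA. ATF4, a transcription factor of the bZIP class, then raises genes of amino acid synthesis and uptake, tRNA charging, redox balance and cell death. Many of these carry the composite element TGATGNAA, which ATF4 binds with a C/EBP partner. These data hold mRNA only, and neither eIF2 phosphorylation nor ATF4 protein was measured. The comparison asks whether NUPR1 and GDF15, both known targets of ATF4, move with its other targets.

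The start-site regions of 4 of the genes show how differently placed the composite element is among them, and are given as the 250 bases before the RefSeq start (GRCh38.p14), 5′ to 3′ on the gene's strand. Capitals mark a match to TGATGNAA on either strand. CHAC1 is shown for a match that begins 209 bases before the start and reads on the opposite strand, ASNS for the match closest to the start, 68 bases before it, ATF3 for one at 191 bases on the gene's strand, and GDF15 for having none in this window.
CHAC1, chr15:40953221-40953470, plus strand: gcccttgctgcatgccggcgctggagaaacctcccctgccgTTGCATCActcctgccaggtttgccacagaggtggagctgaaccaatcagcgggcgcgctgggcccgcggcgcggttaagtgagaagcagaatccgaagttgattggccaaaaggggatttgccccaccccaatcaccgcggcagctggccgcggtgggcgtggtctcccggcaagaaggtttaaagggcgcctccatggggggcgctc
ASNS, chr7:97872409-97872658, minus strand: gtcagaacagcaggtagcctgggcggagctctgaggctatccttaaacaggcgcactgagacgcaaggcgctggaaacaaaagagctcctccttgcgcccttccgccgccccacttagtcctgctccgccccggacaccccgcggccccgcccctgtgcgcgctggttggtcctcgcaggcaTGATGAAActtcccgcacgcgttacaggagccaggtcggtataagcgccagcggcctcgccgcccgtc
ATF3, chr1:212565157-212565406, plus strand: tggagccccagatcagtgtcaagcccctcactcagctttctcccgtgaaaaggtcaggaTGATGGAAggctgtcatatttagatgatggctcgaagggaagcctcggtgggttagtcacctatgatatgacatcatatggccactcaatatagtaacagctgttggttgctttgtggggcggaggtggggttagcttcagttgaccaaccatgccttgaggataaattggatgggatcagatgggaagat
GDF15, chr19:18385908-18386157, plus strand: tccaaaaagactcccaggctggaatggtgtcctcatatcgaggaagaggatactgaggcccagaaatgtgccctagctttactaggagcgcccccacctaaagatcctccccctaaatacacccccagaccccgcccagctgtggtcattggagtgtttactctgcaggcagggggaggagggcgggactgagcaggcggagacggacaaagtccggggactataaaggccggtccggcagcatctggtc

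RefSeq windows, from 250 bases before to 50 after a start, were found for 9 of the 10 genes, the exception being NUPR1. The element lay in the windows of 3 of the 9, and in those of 4.46% of all 27305 genes (3.62% of 35116 single windows). The full-length cAMP response element TGACGTCA, searched on both strands like the others, lay in none of the 9 and in 2.25% of all genes. The endoplasmic reticulum stress element, which ATF6 binds, also lay in none of the 9, and in 0.0916% of all genes. A match is a description of the sequence and no evidence of binding, and GDF15 and NUPR1 are known from other work as ATF4 targets.

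The 10 genes were chosen by the difference in TPM between irradiated and control tumors, which was known from these same 6 tumors, so their values are a description with no test. NUPR1 and GDF15 had the highest ratios of irradiated to control mean of the 10, CHAC1, TRIB3, DDIT3, ATF3 and ASNS were higher by smaller ratios, PSAT1 and PHGDH were slightly higher, and ATF4 mRNA was not higher. Of the 10 genes, 9 had a log2 fold change above 0 and 1 below, with a median of 0.59. Over all 14140 tested genes the median was -0.056, and 44.3% were above 0. Fold changes here are differences in mean log2(TPM + 1), irradiated minus control, which understate changes of genes near 1 TPM. Under limma's adjusted threshold of 0.05, 2 of the 10 passed, NUPR1 and GDF15, both higher, where 1.37% of all tested genes passed in that direction and 2.98% in either. At an unadjusted p of 0.05 the count was 6 of the 10, all higher, against 8.93% of all tested genes higher, 11.5% lower and 20.5% in either direction. The 3 irradiated values lay above the 3 control values for 4 of the 10 (NUPR1, GDF15, CHAC1 and TRIB3), against 11.6% of all tested genes, and below them for none, against 15% (26.6% in either direction). Nothing is read from these shares, since the same contrast chose the genes. GDF15 missed the adjusted threshold when any tumor other than control tumor 2 was left out.

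**Figure D1:**
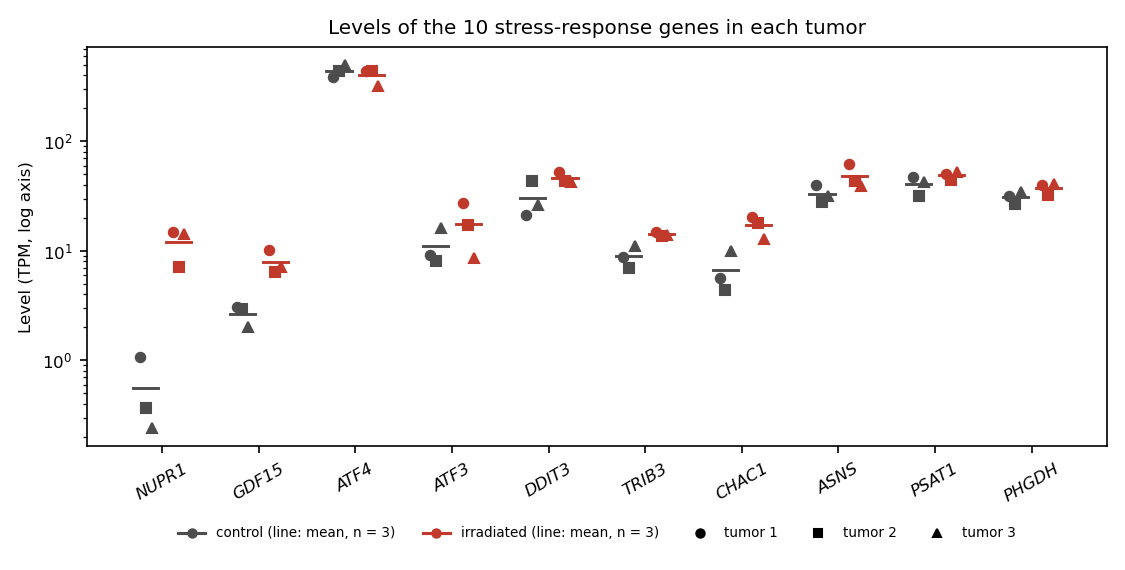
Level of the 10 genes (horizontal axis) in each of the 6 tumors, in TPM on a log axis, grey for control and red for irradiated; symbols mark tumors 1, 2 and 3 and lines the group means (n = 3). NUPR1 goes from a control mean of 0.56 TPM to 12.1 TPM, GDF15 from 2.67 to 7.89 TPM, and ATF4 stays between 321 and 496.2 TPM in all 6 tumors.

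NUPR1 (ENSG00000176046, chromosome 16, 28532708 to 28539174, minus strand) encodes a small, disordered, stress-induced nuclear protein that takes part in transcription and chromatin regulation. Its level in the control tumors was 1.07, 0.37 and 0.24 TPM, and in the irradiated tumors 14.98, 7.11 and 14.20 TPM, in the order of tumors 1, 2 and 3. All irradiated values were above all control values, irradiated tumor 2 was the lowest of its group, and control tumor 1 was the highest of its group. The mean was 0.560 ± 0.446 TPM (SD, n = 3) in controls and 12.1 ± 4.34 TPM (SD, n = 3) after irradiation, a ratio of means of 21.6. The log2 fold change was 3.04 (SE 0.33). Because the control values are so low, this fold change depends on the constant added before taking logs, and was 4.34 with 0.1 TPM and 1.59 with 5 TPM. NUPR1 shares no exon bases with another annotated gene.

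GDF15 (ENSG00000130513, chromosome 19, 18374731 to 18389176, plus strand) encodes a secreted protein of the TGF-β superfamily that stressed cells release and that lowers appetite through its receptor GFRAL in the hindbrain. It stood at 3.06, 2.93 and 2.03 TPM in control tumors 1 to 3 and at 10.11, 6.44 and 7.11 TPM in irradiated tumors 1 to 3. The groups did not overlap, and the lowest irradiated value was above the highest control value. The mean went from 2.67 ± 0.561 to 7.89 ± 1.95 TPM (SD, n = 3 each), a ratio of 2.95 and a log2 fold change of 1.26 (SE 0.24). NUPR1 therefore had the lower level of the pair in each control tumor and the higher level in each irradiated tumor. The level of NUPR1 as a percentage of that of GDF15 was 35.0, 12.6 and 11.8% in the controls and 148, 110 and 200% after irradiation.

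CHAC1, the glutathione-degrading enzyme that the ATF4, ATF3 and CHOP cascade induces, was the third gene whose groups did not overlap. It was at 5.65, 4.39 and 10.03 TPM in the controls, against 20.42, 18.08 and 12.75 TPM after irradiation. Control tumor 3 and irradiated tumor 3 lay closest to each other. The means were 6.69 ± 2.96 and 17.1 ± 3.93 TPM (SD, n = 3), with a log2 fold change of 1.28 (SE 0.29), close to that of GDF15 and with a wider spread within the groups. CHAC1 (ENSG00000128965) lies on chromosome 15, 40952962 to 40956519.

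TRIB3, a pseudokinase that binds ATF4 and AKT and restrains the response, was at 8.74, 7.01 and 11.16 TPM in the controls, against 14.76, 13.56 and 14.05 TPM after irradiation. Its 3 irradiated tumors lay close together and above every control, with means of 8.97 ± 2.08 and 14.1 ± 0.603 TPM (SD, n = 3) and a log2 fold change of 0.62 (SE 0.20). TRIB3 (ENSG00000101255) lies on chromosome 20, 362835 to 397559.

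DDIT3 encodes CHOP, a bZIP factor of the later, death-linked phase of the response. Its levels were 21.39, 43.21 and 26.40 TPM in the controls, against 52.62, 42.96 and 42.44 TPM after irradiation. Control tumor 2 lay above irradiated tumors 2 and 3, so the groups overlapped through that 1 tumor. The means were 30.3 ± 11.4 and 46.0 ± 5.73 TPM (SD, n = 3), and the log2 fold change was 0.64 (SE 0.25), or 0.92 without control tumor 2. DDIT3 (ENSG00000175197, chromosome 12, 57516588 to 57521737, minus strand) shares 355 of its 1307 exon bases with MARS1 on the opposite strand, and whether the counting used strand is not given in the sources used here. MARS1, the methionyl-tRNA synthetase, was at 224.8, 104.4 and 188.2 TPM in the controls, against 107.5, 173.3 and 124.1 TPM after irradiation, in each group lowest in the tumor where DDIT3 was highest.

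ATF3, a bZIP factor that is induced early by many stresses, was the least even of the 10. It was at 9.08, 8.02 and 16.00 TPM in the controls, against 27.34, 17.05 and 8.62 TPM after irradiation, so that irradiated tumor 3 lay below 2 of the 3 controls. The means were 11.0 ± 4.33 and 17.7 ± 9.38 TPM (SD, n = 3), the log2 fold change was 0.56 (SE 0.40), and it was 0.19 without irradiated tumor 1 and 0.97 without irradiated tumor 3. ATF3 (ENSG00000162772) lies on chromosome 1, 212565334 to 212620777.

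ATF4 itself (ENSG00000128272, chromosome 22, 39519695 to 39522685) was the most abundant of the 10 in every tumor. It was at 385.1, 435.2 and 496.2 TPM in the controls, against 442.2, 438.2 and 321.0 TPM after irradiation. The groups overlapped, with the highest value in control tumor 3 and the lowest in irradiated tumor 3. The means were 438.8 ± 55.6 and 400.4 ± 68.8 TPM (SD, n = 3), and the log2 fold change was -0.14 (SE 0.17). Without irradiated tumor 3 it was 0.012.

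The 3 genes of amino acid synthesis were among the more abundant. ASNS, asparagine synthetase, was at 39.53, 27.65 and 31.99 TPM in the controls, against 62.53, 43.48 and 38.81 TPM after irradiation, with irradiated tumor 3 just below control tumor 1. Its means were 33.1 ± 6.01 and 48.3 ± 12.6 TPM (SD, n = 3), with a log2 fold change of 0.52 (SE 0.21). On the same strand, 1985 of the 4455 exon bases of ASNS (ENSG00000070669, chromosome 7, 97852118 to 97872542) are shared with an unnamed processed transcript, so reads can be split between them. That transcript was at 20.19, 19.31 and 18.70 TPM in the controls, against 34.60, 31.38 and 39.27 TPM after irradiation. The sum of both was 59.7, 47.0 and 50.7 TPM in the controls, against 97.1, 74.9 and 78.1 TPM after irradiation, and the groups of the sum did not overlap.

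PSAT1 and PHGDH, enzymes of serine synthesis, differed least among the genes that were higher. PSAT1 (ENSG00000135069, chromosome 9, 78297143 to 78330093) was at 47.24, 31.85 and 42.52 TPM in the controls, against 50.33, 44.61 and 52.24 TPM after irradiation. PHGDH (ENSG00000092621, chromosome 1, 119648411 to 119744226) was at 31.50, 27.02 and 34.57 TPM and at 39.78, 32.38 and 40.76 TPM. Both overlapped between groups, and both were lowest in tumor 2 of each group. Their log2 fold changes were 0.28 (SE 0.18) and 0.27 (SE 0.16).

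In order of mean TPM, the controls ran from ATF4 through PSAT1, ASNS, PHGDH and DDIT3 to ATF3, TRIB3, CHAC1, GDF15 and NUPR1. The values of neighbours in this order overlapped except between ATF4 and PSAT1, DDIT3 and ATF3, CHAC1 and GDF15, and GDF15 and NUPR1. After irradiation the order was ATF4, PSAT1, ASNS, DDIT3, PHGDH, ATF3, CHAC1, TRIB3, NUPR1 and GDF15, and each neighbouring pair from ATF3 down to GDF15 overlapped. NUPR1 thus went from the lowest place, apart from GDF15, to values that overlapped with those of TRIB3 and GDF15.

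Within a group, the tumors did not rank the genes alike. Irradiated tumor 1 held the highest value of its group for 8 of the 10 genes, where 25.5% of all tested genes were highest, and the lowest for none. Control tumor 2 held the lowest value of its group for 6 of the 10, where 57.3% of all tested genes were lowest. Ribosomal protein genes took 27% of the TPM in control tumor 2 and 19.8 to 22.3% in the other tumors. Genes at 1 TPM or more numbered 13392 in control tumor 2 and 13833 to 14218 in the other tumors. As TPM are shares, this bears on its other values. With control tumor 2 left out, 791 genes passed limma's adjusted threshold, against 421 with all 6 tumors. With all 6 tumors but without mitochondrially encoded and ribosomal protein genes, 525 passed. The reason for these differences was not tested. Irradiated tumors 2 and 3 each held the lowest value for 5 of the 10, where 25.4% and 34.5% of all tested genes were lowest. The summed TPM of 14 interferon-stimulated genes was also highest in irradiated tumor 1, at 10338 TPM, with 6552 and 4166 TPM in irradiated tumors 2 and 3 and 1680, 1215 and 3371 TPM in control tumors 1 to 3. These 14 genes were listed because they mark the response of these same tumors, so their counts are a description. All 14 had a log2 fold change above 0, with a median of 1.75, where 44.3% of all tested genes were above 0. Under limma's adjusted threshold 3 rose (OASL, OAS1 and IFI27), where 1.37% of all tested genes did. Of these 3, none passed without control tumor 1, and OASL alone passed without irradiated tumor 1 or without irradiated tumor 2. The part of the interferon response in the values of the 10 genes was not tested.

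NUPR1 and GDF15 had the same order of tumors in both groups, with control tumors 1, 2 and 3 in falling order and irradiated tumors 1, 3 and 2 in falling order. CHAC1, TRIB3, ATF3 and PHGDH had another order among the controls, highest in tumor 3 and lowest in tumor 2. ATF4, ATF3, DDIT3, CHAC1 and ASNS fell from irradiated tumor 1 through 2 to 3. CHAC1 and ATF3 thus also had the same order in both groups, and TRIB3 had the irradiated order of NUPR1 and GDF15. The deviation from the group mean of log2(TPM + 1) in irradiated tumor 3 was 0.28 for NUPR1 and -0.82 for ATF3. After removing the group means, the root-mean-square difference between NUPR1 and GDF15 over the 6 tumors was 0.28. From NUPR1 to the others it ran from 0.32 (PSAT1), 0.33 (PHGDH) and 0.34 (ASNS) to 0.52 (ATF4), 0.60 (CHAC1) and 0.71 (ATF3). GDF15 was nearer to ASNS (0.20) and PHGDH (0.26) than to NUPR1, and farthest from ATF3 (0.55) and CHAC1 (0.47), so by this measure NUPR1 and GDF15 were not set apart as a pair. These are descriptions of 6 tumors.

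**Figure D2:**
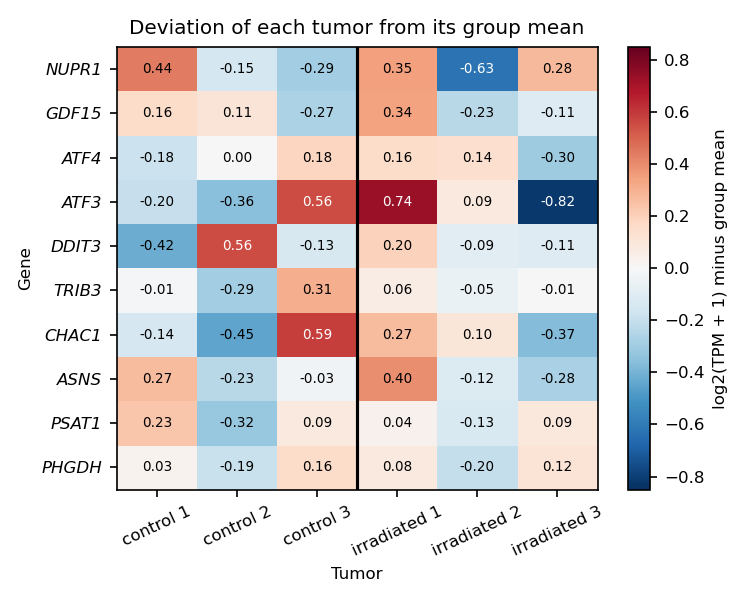
Deviation of each tumor from its group mean in log2(TPM + 1), with the 10 genes as rows, the 6 tumors as columns and colour from blue (below) to red (above). Irradiated tumor 1 is above its group mean for all 10 genes. NUPR1 and GDF15 share an order of tumors, as do CHAC1 and ATF3, and ATF3 spans from 0.74 in irradiated tumor 1 to -0.82 in irradiated tumor 3.

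Set against ATF4 mRNA in the same tumor, 4 of the other 9 genes kept their groups apart, the same 4 as by TPM alone. No share over all tested genes was taken for these ratios, so nothing is read from the count. NUPR1 was 0.278, 0.0850 and 0.0484% of the ATF4 level in the controls and 3.39, 1.62 and 4.42% after irradiation. GDF15 was 0.795, 0.673 and 0.409% and then 2.29, 1.47 and 2.22%. CHAC1 was 1.47, 1.01 and 2.02% in the controls and 4.62, 4.13 and 3.97% after irradiation, and TRIB3 was 2.27, 1.61 and 2.25% and then 3.34, 3.09 and 4.38%. CHAC1 over ATF4 was more even among the irradiated tumors than CHAC1 alone, since both were lowest in irradiated tumor 3. For DDIT3, ASNS, ATF3, PSAT1 and PHGDH the ratios overlapped between groups. The level of GDF15 as a percentage of ASNS was 7.74, 10.6 and 6.35% in the controls and 16.2, 14.8 and 18.3% after irradiation, so the groups stood apart for this pair of ATF4 targets as well.

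**Figure D3:**
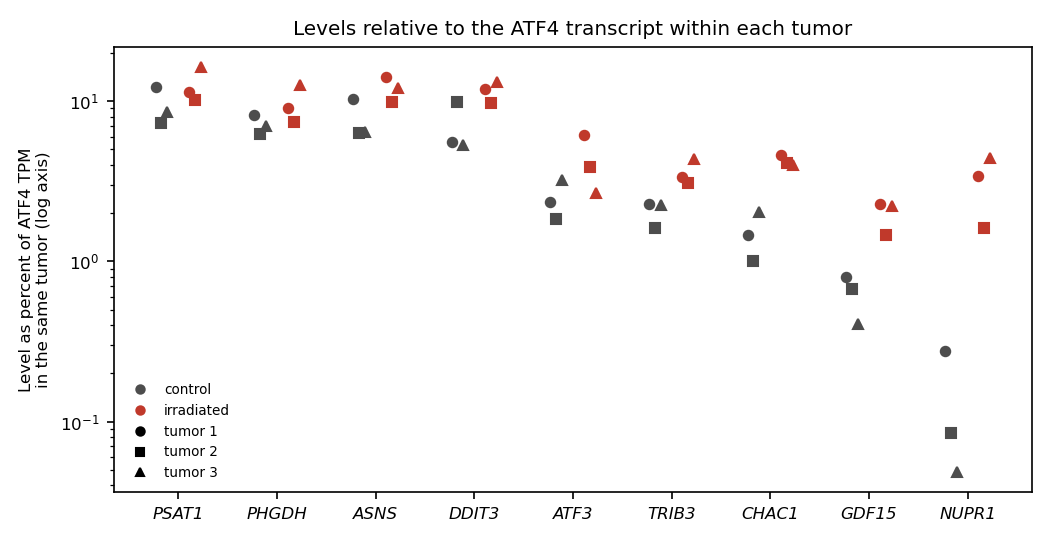
Level of each of the 9 other genes as a percentage of the ATF4 level in the same tumor, on a log axis, grey for control and red for irradiated, with symbols for tumors 1, 2 and 3. The groups are apart for NUPR1, GDF15, CHAC1 and TRIB3, and overlap for DDIT3, ASNS, ATF3, PSAT1 and PHGDH.

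The genes with the profiles most like those of NUPR1 and GDF15 over the 6 tumors were sought among 9382 named genes whose mean was 5 TPM or more, by the root-mean-square difference of centred log2(TPM + 1). For NUPR1 they were IL4I1 (0.40), FAM220A (0.51), H2AC6 (0.55), RILPL2 (0.56) and NPIPA8 (0.57). IL4I1, a secreted amino acid oxidase, was at 0.36, 0.43 and 0.45 TPM in the controls, against 10.18, 10.20 and 10.71 TPM after irradiation, but shares exons with NUP62 on the same strand, and NPIPA8 belongs to a multigene family, so both are uncertain. For GDF15 they were MT-RNR1 (0.084), ID1 (0.12), VSTM2L (0.12), STBD1 (0.13) and TCN2 (0.16). ID1, an inhibitor of basic helix-loop-helix factors, went from 16.3 ± 1.62 to 45.5 ± 9.09 TPM (SD, n = 3). MT-RNR1, the small mitochondrial ribosomal RNA, went from 726 ± 84.0 to 1688 ± 459 TPM (SD, n = 3). STBD1 shares exons with the read-through gene FAM47E-STBD1, which was at 4.31, 8.27 and 5.40 TPM in the controls, against 0.05, 0.08 and 0.00 TPM after irradiation, so the rise of STBD1 is uncertain. The 10 genes themselves were left out of this search. Each profile was centred on its mean over all 6 tumors, so the measure includes the difference between groups that chose the 10 genes. Likeness here is therefore largely likeness in fold change, and no shared regulation is read from it.

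Other known targets of ATF4, 54 genes in 4 lists, were split evenly between higher and lower. Of the 51 measured, 4 rose and none fell under limma at an adjusted p of 0.05, where 1.37% of all tested genes rose and 1.61% fell. At an unadjusted p of 0.05, 13 were higher and 3 lower, where 8.93% and 11.5% of all tested genes were. A log2 fold change above 0 was found for 25 and one below 0 for 26, and the median was -0.0028, against -0.056 over all tested genes and 0.59 for the 10 genes. Leaving out tumors changed the count of 4, to 1 without control tumor 1, 3 without control tumor 2 and 0 when any of the other 4 was left out. The summed level of the 54 genes overlapped between groups, from 2768 to 3603 TPM in the controls and from 3149 to 3490 TPM after irradiation.

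Amino acid transport held 2 of the 4 that rose. SLC6A9, the glycine transporter GLYT1, was at 4.70, 2.81 and 3.73 TPM in the controls, against 11.40, 8.68 and 9.50 TPM after irradiation, a log2 fold change of 1.21 (SE 0.22) with a limma adjusted p of 0.0292. SLC3A2, the heavy chain shared by several amino acid exchangers, was at 116.9, 122.9 and 137.6 TPM and then 201.0, 187.4 and 196.8 TPM, a log2 fold change of 0.63 (SE 0.12) with a limma adjusted p of 0.0356. SLC1A4, a neutral amino acid transporter, had a log2 fold change of 0.94 with a limma adjusted p of 0.0549. Both calls held without control tumor 2, and that of SLC6A9 also without control tumor 1, but neither without control tumor 3 or any irradiated tumor (limma adjusted p of up to 0.129 for SLC6A9 and 0.145 for SLC3A2). At limma's unadjusted p of 0.05, 5 transporters were higher and none lower, where 8.93% and 11.5% of all tested genes were. The summed level of this list did not overlap between groups, from 380 to 513 TPM in the controls and from 558 to 590 TPM after irradiation. Of the 9 measured transporters 6 had a fold change above 0, with a median of 0.41. SLC7A11, the cystine exchanger, was among the remaining 3, at 5.81 ± 1.25 and 5.86 ± 1.71 TPM (SD, n = 3).

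The other 2 that rose were secreted signals in the list of regulators and effectors. ADM2, a peptide of the calcitonin family, was at 3.11, 2.74 and 3.62 TPM in the controls, against 11.35, 8.79 and 7.04 TPM after irradiation, with a log2 fold change of 1.26 and a limma adjusted p of 0.0274. INHBE, an activin subunit, was at 0.89, 0.48 and 0.79 TPM and then 3.88, 4.18 and 2.17 TPM, with a log2 fold change of 1.33 and a limma adjusted p of 0.0460, and passed the filter only through the irradiated group. Without 1 tumor, ADM2 passed only where control tumor 2 was left out (limma adjusted p of up to 0.116 otherwise), and INHBE passed in none of the 6 cases (0.0598 to 0.177). SESN2 (0.78), STC2 (0.75) and JDP2 (0.90) had positive log2 fold changes that did not pass the adjusted threshold (limma adjusted p of 0.109, 0.222 and 0.0759). STC2 also passed the filter only through the irradiated group. ERO1A was at -0.77 (limma adjusted p of 0.0992) and PPP1R15A, the phosphatase subunit GADD34 that ends the response, at -0.0083. The median of the 19 measured genes was -0.0083. At limma's unadjusted p of 0.05, 5 were higher and 1 lower, where 8.93% and 11.5% of all tested genes were.

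None of the 10 measured genes of amino acid and folate-linked synthesis passed limma's adjusted threshold. At limma's unadjusted p of 0.05, 2 were higher and 1 lower, where 8.93% and 11.5% of all tested genes were. Their median log2 fold change was 0.18, with PCK2 at 0.67, PYCR1 at 0.39 and MTHFD1L at -0.58 (limma adjusted p of 0.130, 0.181 and 0.109). None of the 13 tRNA-charging genes passed either, with 1 higher and 1 lower at limma's unadjusted p of 0.05, against the same shares of all tested genes. A fold change below 0 was found for 10 of the 13, with a median of -0.27. WARS1, the tryptophanyl-tRNA synthetase and also an interferon-induced gene, was highest of that list at 0.97 (limma adjusted p of 0.0843), while NARS1, the asparaginyl-tRNA synthetase, was at -0.43 and XPOT, a tRNA exporter, at -0.51 (limma adjusted p of 0.220 and 0.247).

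**Figure D4:**
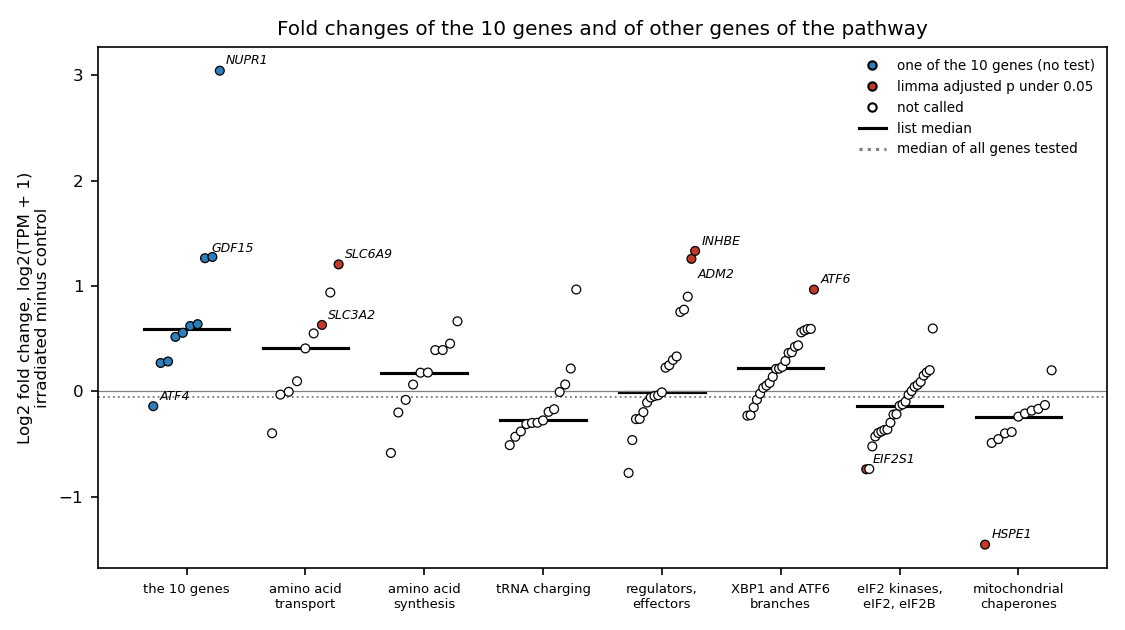
Log2 fold change of each measured gene, irradiated minus control in log2(TPM + 1), with 1 column a list; black bars are list medians, the dotted line is the median of all tested genes, and red points passed limma's adjusted threshold of 0.05. The 10 genes have a median of 0.59, the transporters 0.41, and the tRNA-charging genes -0.27.

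Of the 42 other targets with a RefSeq window, 16 held TGATGNAA, or 38.1%, against 4.46% of all 27305 genes, and the share was 7 of 11 for tRNA charging, 4 of 8 for transport, 2 of 7 for synthesis and 3 of 16 for regulators and effectors. The 15 measured targets with it had a median log2 fold change of -0.057, with 6 above 0 and 1 that rose (SLC3A2). The 25 without it had a median of 0.18, with 15 above 0 and 2 that rose. The difference between these medians was not tested.

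Upstream of ATF4, none of the 23 measured genes for eIF2 kinases, eIF2, eIF2B and phosphatases rose and 1 fell. EIF2S1, the eIF2 subunit that is phosphorylated, was at 169.6, 142.4 and 134.3 TPM in the controls, against 83.2, 100.5 and 82.5 TPM after irradiation, and fell by 0.74 on the log2 scale (limma adjusted p of 0.0406). With 1 tumor left out it passed only without control tumor 2, with a limma adjusted p of up to 0.149 otherwise. EIF2S2 was at -0.38 and PPP1CB at -0.52 (limma adjusted p of 0.169 and 0.145). Among the kinases the log2 fold change was 0.60 for EIF2AK3 (PERK), 0.20 for EIF2AK2 (PKR), -0.22 for EIF2AK1 (HRI) and -0.36 for EIF2AK4 (GCN2), with limma adjusted p from 0.264 to 0.771. The list's median was -0.14. At limma's unadjusted p of 0.05, none was higher and 5 were lower, where 8.93% and 11.5% of all tested genes were.

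The other 2 arms of the unfolded protein response, run by ATF6 and XBP1, were measured by 22 genes, of which 1 rose and none fell, and 7 were higher and none lower at an unadjusted p of 0.05, where 8.93% and 11.5% of all tested genes were. ATF6 was at 11.33, 10.57 and 9.63 TPM in the controls, against 20.17, 25.26 and 19.36 TPM after irradiation, a log2 fold change of 0.97 with a limma adjusted p of 0.0273, which with 1 tumor left out passed only without control tumor 2 (up to 0.104 otherwise). SYVN1 and HYOU1, of protein degradation and folding in the endoplasmic reticulum, each stood at 0.59 (limma adjusted p of 0.0770 and 0.0870). HSPA5, the chaperone BiP, was at 278.8, 324.4 and 305.5 TPM and then 413.1, 436.6 and 328.8 TPM, with a log2 fold change of 0.37 (limma adjusted p of 0.201). The list's median was 0.23, and 17 of 22 were above 0. The endoplasmic reticulum stress element lay in the windows of 6 of these 22 genes, or 27.3%.

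Of 11 mitochondrial chaperones and proteases none rose and 1 fell, and 10 of 11 had a fold change below 0, with a median of -0.24. At limma's unadjusted p of 0.05, none was higher and 3 were lower, where 8.93% and 11.5% of all tested genes were. The gene that fell, HSPE1, had a log2 fold change of -1.45 (limma adjusted p of 0.00255), but part of its exons also belongs to HSPE1-MOB4, a read-through gene that was at 1.41 to 6.34 TPM in the controls, against 327 to 379 TPM after irradiation, so the fall is uncertain. HSPD1 was at -0.45 and TRAP1 at -0.49, with limma adjusted p of 0.193 and 0.200.

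Of the measured genes for the receptor, processing and upstream factors of GDF15 none passed the adjusted threshold or an unadjusted p of 0.05 under limma, among them the processing protease FURIN at a log2 fold change of 0.39, PCSK6 at -0.49 and EGR1 at 0.42 (limma adjusted p of 0.259, 0.314 and 0.317). GFRAL was listed at 0 in all 6 tumors. Of 7 measured partners of NUPR1 none passed. At limma's unadjusted p of 0.05, none was higher and 1 lower, where 8.93% and 11.5% of all tested genes were. PTMA, the prothymosin that NUPR1 binds, was at -0.38, COPS5 at -0.22 and TFE3 at 0.17 (limma adjusted p of 0.156, 0.420 and 0.625). NUPR2, its paralog, was listed at 0 in all 6 tumors.

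Facts of all the libraries bear on these values. The summed TPM fell short of the full total by 0.168, 0.143 and 0.198% in control tumors 1 to 3. In irradiated tumors 1 to 3 the shortfall was 0.774, 0.608 and 0.523%. The read-through genes HSPE1-MOB4 (higher after irradiation) and FAM47E-STBD1 (lower) also kept the groups apart. A difference in quantification between the groups cannot be told apart from irradiation, for NUPR1 and GDF15 as for other genes. Markers of the line were present in all tumors (VIM at 3148 to 5283 TPM), and of 8 luminal markers ESR1, PGR and CDH1 were at most 0.32 TPM, GATA3 and FOXA1 at 1.59 to 4.34 TPM, ERBB2 at 25.4 to 40.7 TPM, and KRT8 and KRT18 at 328 to 721 TPM. Summed fibroblast markers were at 479 to 1007 TPM in the controls, against 133 to 216 TPM after irradiation, and 6 of the 7 measured had a fold change below 0. The collagens COL1A1, COL1A2 and COL3A1 made up most of this sum. LUM, PDGFRA and THY1 were at most 0.39 TPM and did not pass the filter. PDGFRB went the other way, from a mean of 3.51 TPM in the controls to 8.09 TPM after irradiation. COL1A2, COL3A1 and COL1A1 fell (limma adjusted p of 0.0112, 0.0151 and 0.0194), though none of the 3 passed without irradiated tumor 3, COL3A1 and COL1A1 not without irradiated tumor 1, and COL1A1 not without control tumor 1 (up to 0.0722). Summed skeletal muscle markers were at 184 to 495 TPM and then 2.37, 127 and 2.67 TPM, and all 10 had a fold change below 0. CASQ1, MYH4 and MYH1 fell (limma adjusted p of 0.0337, 0.0437 and 0.0437), and with 1 tumor left out they passed only without control tumor 2 (CASQ1 and MYH4) or irradiated tumor 2 (MYH4 and MYH1), with up to 0.145 otherwise. Macrophage and leukocyte markers summed to 90.5 to 108.9 TPM and 108 to 208 TPM, with PTPRC at most 0.30 TPM. CD68 made up most of these sums. Of the 4 measured, 2 had a log2 fold change above 0 (CD68 at 0.61 and ADGRE1 at 0.64) and 2 below (LYZ at -0.99 and CSF1R at -0.13). The part of these other cells in the values of the stress genes was not tested, and the removal of mouse reads is not given in the sources used here. In bulk tumors, fewer cells of a type and less RNA per cell cannot be told apart.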

How the data were processed

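The data were 1 table with 60606 genes and 6 tumors. The authors deposited TPM, which are shares of each sample's total and keep no read depth, so depth is unknown and no counting interval or count test was possible. Libraries were made from total RNA with a TruSeq RNA kit, per the labels' protocols. HISAT2, StringTie, RSEM and hg38 are named in the submitters' processing notes, without versions. Not given in the sources used here are the gene annotation, whether counting used strand, and whether mouse reads were removed.

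The 14140 genes averaging 1 TPM or more over the tumors were compared between groups with limma 3.58.1 in R 4.3.3 (lmFit, eBayes with trend) on log2(TPM + 1), with group as the only term, two-sided, with Benjamini-Hochberg adjustment at 0.05. The method was checked on simulated data. Coordinates (GRCh38) and exon overlaps came from GENCODE release 29, which held 58396 of the identifiers, and start-site windows from RefSeq (GRCh38.p14).

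The 10 genes and all lists were chosen with earlier results of these data known. Named genes are the 10, every gene of the other lists called at the adjusted threshold, the 3 of smallest unadjusted p per pathway list, and the 5 nearest profiles of NUPR1 and GDF15 (pseudogenes and clone, LOC and LINC names were not eligible). Overlap partners, SLC7A11, SESN2, STC2, ERO1A, PPP1R15A, HSPA5, the 4 eIF2 kinases, GFRAL, NUPR2 and the remaining markers of cell types were chosen with their values in view. Alternatives were the constant added before logs, the filter, the scaling, the model and leaving out tumors. One gene and the list of its targets are not reported here.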

Additional observations from a re-analysis of the deposited data

How the results depend on the processing

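Across 17 alternatives the median log2 fold change of the 10 genes was 0.43 to 0.67, against 0.59 as reported, and each gene but ATF4 kept its direction in all 17, while ATF4 went to 0.012 without irradiated tumor 3. Counts at the adjusted threshold moved more. Among the 10 genes, GDF15 lost its call with no filter on low values, with a minimum mean of 5 TPM, with the replicate block and without both second tumors, and CHAC1 gained one with medians of ratios, with quantile normalization, without mitochondrially encoded and ribosomal protein genes, and with robust estimates. CHAC1 also gained one without control tumor 3, and DDIT3 without control tumor 2. Of all genes, 421 passed, against 133 with no filter on low values, 279 with limma without trend, 185 with the replicate block and 186 with tumor 2 of both groups left out, the last chosen after seeing the data. With 1 tumor left out the count was 127 to 791, the highest without control tumor 2. For the other ATF4 targets the count of 4 became 0 with no filter on low values, 0 with the replicate block and 0 without both second tumors, and was 0 to 3 with 1 tumor left out. Over 8 other pathway lists, of which 1 with 1 call is not reported here, the count of 4 became 1 with no filter, 2 without trend, 1 with the replicate block and 1 without both second tumors, and was 1 to 4 with 1 tumor left out. Over the 7 reported lists it was 3, and 1 to 5 under the alternatives. The replicate block treats tumors of the same number as pairs, but their deviations correlated at -0.043, -0.046 and -0.059, and the labels tie no tumors together. Because TPM keeps no depth, counting error at low levels such as NUPR1 in the controls cannot be given. Levels of ASNS, DDIT3, HSPE1, IL4I1 and STBD1 depend on how reads were shared with overlapping genes, which the deposited values do not show.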

Other observations

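Among 17 measured genes listed for other bZIP factors, the family of ATF4 and its partners, none passed limma's adjusted threshold. At limma's unadjusted p of 0.05, 2 were higher and 1 lower (CEBPZ), where 8.93% and 11.5% of all tested genes were. BATF2, an interferon-inducible member, was at 0.40 to 1.5 TPM in controls and at 7.64, 3.06 and 2.69 TPM after irradiation, with a log2 fold change of 1.44 and a limma adjusted p of 0.0870. BATF2 passed the filter only through the irradiated group. CREB3, a membrane-bound factor of the secretory pathway, had a log2 fold change of 0.51, and CEBPZ had -0.81 (limma adjusted p of 0.0934 and 0.101). CEBPZ was listed by its symbol and is not itself a bZIP factor. CEBPD, a possible partner of ATF4 at the composite element, ranged from 16.27 to 110.98 TPM in the controls and from 9.85 to 48.55 TPM after irradiation, highest in control tumor 3 and lowest in irradiated tumor 3. Of the 10 genes, 5 (ATF4, ATF3, TRIB3, CHAC1 and PHGDH) were also highest in control tumor 3 among the controls, where 31.5% of all tested genes were. Irradiated tumor 3 was lowest of its group for 5 (ATF4, ATF3, DDIT3, CHAC1 and ASNS), where 34.5% of all tested genes were. A part of CEBPD in these levels was not tested.

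Of 10 genes of glutathione synthesis and breakdown, the pathway CHAC1 acts on, none passed limma's adjusted threshold. At limma's unadjusted p of 0.05, none was higher and 1 lower, where 8.93% and 11.5% of all tested genes were. GGCT, the gene that was lower, was at 53.3, 40.7 and 46.7 TPM in the controls, against 32.9, 31.2 and 23.4 TPM after irradiation. Its log2 fold change was -0.67 (limma adjusted p of 0.0883), with no overlap between the groups. GGT5 ranged from 7.27 to 10.93 TPM in controls and was at 6.13, 28.70 and 96.49 TPM in irradiated tumors 1 to 3. GSR, glutathione reductase, had a log2 fold change of -0.34 (limma adjusted p of 0.379). CEBPD was singled out after its values were seen.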
